A study of Homo sapiens with 6 samples.

Results

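Interleukins, the LIF family and their receptors are secreted cytokines and the cell surface proteins that read them. The set holds 38 genes, chosen by name: 18 ligands, 1 antagonist and 19 receptors. Each gene was represented by the RefSeq transcript accession with the highest base mean in the authors' deposited table, out of 27738 genes listed there. Base mean is the average over the 6 libraries of reads divided by a library size factor. The RNA came from U87, an established human glioblastoma cell line, with 3 libraries of cells labelled EGFR+vIII and 3 of EGFR+vIII TLR2 KO cells. All 6 libraries therefore share the U87 background and both EGFR and EGFRvIII, the constitutively active deletion mutant of the epidermal growth factor receptor. The second group in addition lacks TLR2, a cell surface receptor of innate immunity that signals to NF-kB. The sources used here do not say how TLR2 was removed, or whether the line is 1 clone or a pool. Nor do they say that the 3 libraries of a group are separate cultures, so a p-value covers only the spread among these libraries, which could be technical.

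Interleukins signal by bringing receptor chains together on the cell surface. The IL-1 family uses a receptor with a Toll-like intracellular domain and the adaptor MYD88, the same adaptor that Toll-like receptors use, and ends in NF-kB. The IL-6 and LIF family, the IL-4, IL-7 and IL-10 families and the factors CSF2 and CSF3 use receptors that carry JAK kinases and activate STAT factors, while CSF1 and IL34 bind CSF1R, itself a tyrosine kinase. Many chains are shared: IL6ST (gp130) serves every ligand of the IL-6 and LIF family, and IL10RB serves several ligands of the IL-10 family. Glioblastoma cells are known to secrete IL-1, IL-6 and LIF, and IL13RA2 is known as a surface antigen of many glioblastomas.

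Only summary values per accession were deposited, and levels are given as the base mean over both groups. For 14 members with few reads the base mean could be resolved into whole reads in each of the 6 libraries, without telling which group a library belongs to. The change between groups is given as a log2 ratio, the authors' log2 fold change, with its standard error (SE) and the adjusted p of their DESeq2 test. A positive ratio is taken to mean a higher level in the knockout, because the name of the authors' deposited table puts the knockout first. The targeted gene could not check this order, since all 8 TLR2 accessions are listed at 0 in the authors' deposited table, and the opposite order would reverse every direction. Base means in the authors' deposited table sum to 11240272 normalized reads per library. Genes split over several accessions can hold few reads. EGFR, which all 6 libraries should express by label, has 9 accessions and a base mean of at most 1.32 in the authors' deposited table. This does not hold for every such gene, since KHSRP, with 3 accessions, has a base mean of 1501 there. For a gene with several accessions, a listing at 0 is therefore no measure of silence, and its value is that of 1 accession. For a gene with 1 accession, such as S100B or CSF2RB, a listing at 0 means that no reads were assigned to it in the 6 libraries. In bulk RNA, fewer cells of a kind and less RNA per cell cannot be told apart. Vimentin (VIM), a filament protein of glioma cells, had a base mean of 126476 in the authors' deposited table, while the astroglial markers GFAP, S100B and FABP7 are listed at 0. Of 9 glioma and astroglial markers 6 were tested, and 2 rose (NES, CHI3L1) and 2 fell (VIM, SOX2) in the authors' deposited table. Of 11 leucocyte markers, 6 are listed at 0, among them PTPRC, CD14 and CSF1R. The base means of all 11 in the authors' deposited table sum to 52.6. Of 4 endothelial markers 3 were tested, and 0 rose or fell by the authors' DESeq2 test (1 higher and 0 lower at an unadjusted p under 0.05). Their base means in the authors' deposited table sum to 729, with 556 for KDR and 159 for PECAM1. In the authors' deposited table, 2 of 3 tested epithelial markers rose, KRT5 (base mean 10.3, log2 ratio 1.83) and KRT14 (7.01, log2 ratio 1.39). EPCAM, also tested, did not rise (log2 ratio -0.22, SE 0.36). Among 4 tested fibroblast markers the matrix genes COL1A1, COL1A2 and LUM fell, and the receptor PDGFRB did not (log2 ratio 0.01, SE 0.34). Beside these counts, 11.6% of all tested accessions rose and 11.9% fell at an adjusted p under 0.05. Of genes with 1 accession, 17.0% rose and 17.0% fell. The base means of the whole lists sum to 42.7 for 6 epithelial markers, of which CDH1 is listed at 0, and to 17642 for 5 fibroblast markers in the authors' deposited table. The part of these shifts in the results on cytokines was not tested.

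Of the 38 members, 8 are listed at 0, 8 had too few reads for an adjusted p, and 22 were tested in the authors' deposited table. The adjusted p of 7 members was under 0.05: 4 were higher in the knockout (IL13RA2, IL20RB, IL7R and CSF2) and 3 were lower (IL10RB, IL13RA1 and OSMR). That is 31.8% of the tested members, beside 23.5% of all 10303 tested accessions, 11.6% higher and 11.9% lower. The median log2 ratio of the 22 tested members was 0.07, beside 0.02 over all tested accessions in the authors' deposited table. By kind, 3 of 11 tested receptors rose and 3 fell, while 1 of 11 tested ligands rose and 0 fell by the authors' DESeq2 test (1 higher and 0 lower at an unadjusted p under 0.05). Ligands and receptors were not compared by a test. Calls also went with the number of accessions: 5 of 8 members with 1 accession were called, beside 34.0% of all genes with 1 accession. Among the 30 members with 2 or more accessions, 14 were tested and 2 were called, IL7R and OSMR, beside 11.3% of all such genes tested. The 8 members without an adjusted p are all receptors, with at most 12 reads each over the 6 libraries.

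**Figure D1:**
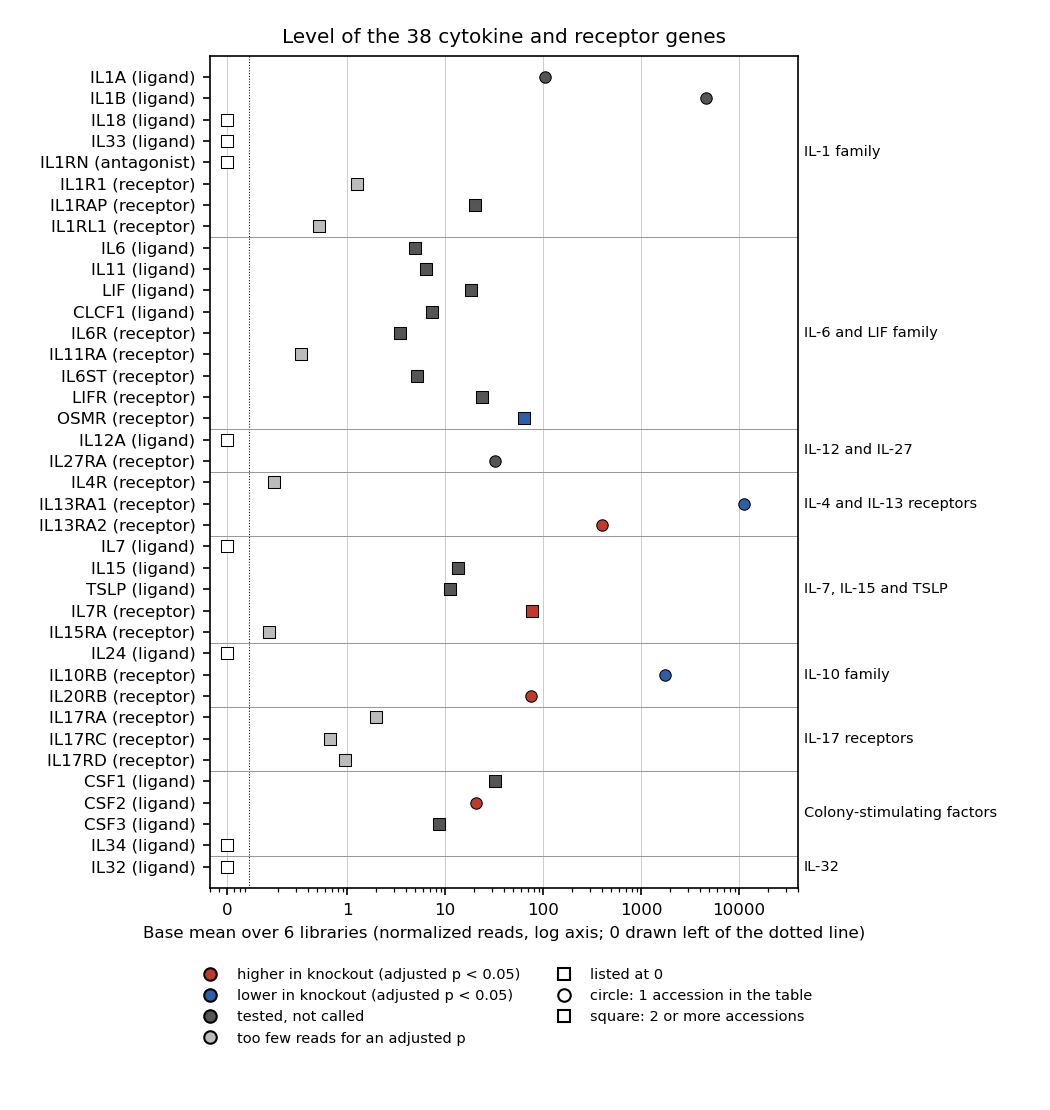
Base mean over the 6 libraries (normalized reads, log axis) of each of the 38 members, grouped by family, with circles for genes with 1 accession in the table and squares for 2 or more. Red and blue mark the 4 higher and 3 lower members. The 8 members listed at 0 all have 2 or more accessions, and the members with 1 accession all lie at or above a base mean of 20.8.

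**Figure D2:**
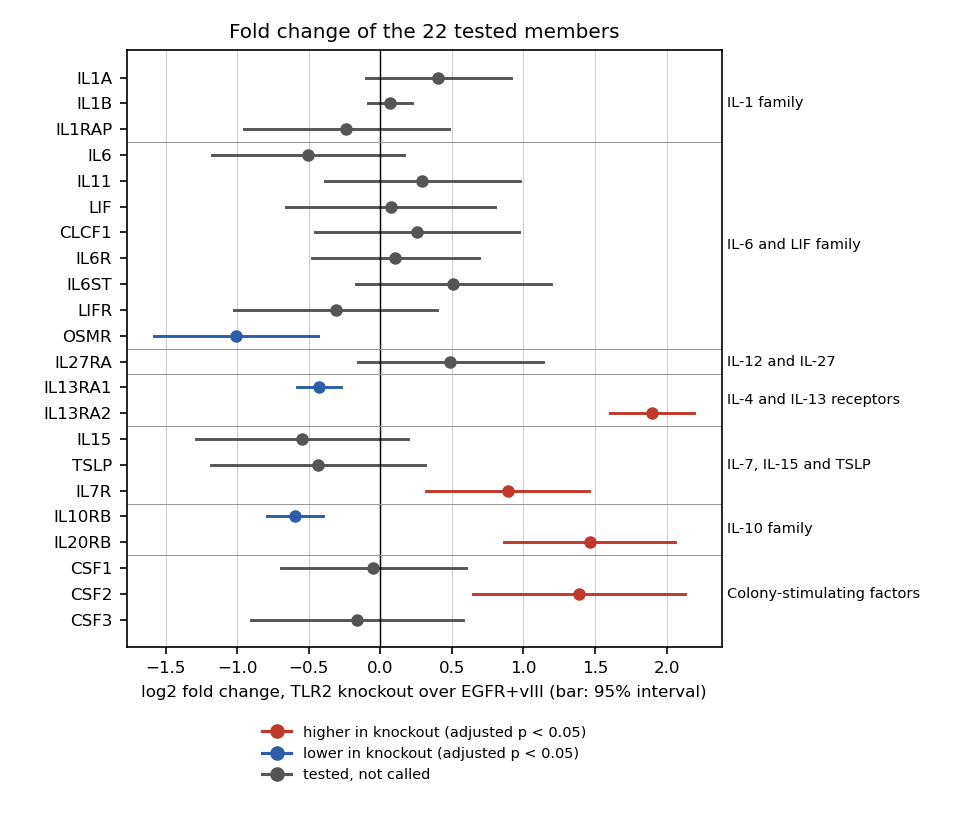
Log2 ratio (log2 fold change on the axis) of the 22 tested members, TLR2 knockout over EGFR+vIII, with bars for the 95% interval of the estimate and colours for the call. IL13RA2 lies farthest to the right at 1.90 and OSMR farthest to the left at -1.01, while most ligands have intervals that cross 0.

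To show the sequences in front of the changed genes, the 250 bases before the annotated start of 6 of the 7 called members are given 5′ to 3′ from RefSeq (build GRCh38.p14, forward strand). Capitals mark a match to a searched motif. The first 3 genes rose and the last 3 fell in the knockout.
CSF2, chr5:132073539-132073788: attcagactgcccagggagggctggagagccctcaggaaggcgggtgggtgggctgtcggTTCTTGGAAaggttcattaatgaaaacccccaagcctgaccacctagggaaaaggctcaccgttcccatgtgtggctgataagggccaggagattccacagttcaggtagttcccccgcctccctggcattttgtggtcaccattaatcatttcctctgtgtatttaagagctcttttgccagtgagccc
IL20RB, chr3:136957733-136957982: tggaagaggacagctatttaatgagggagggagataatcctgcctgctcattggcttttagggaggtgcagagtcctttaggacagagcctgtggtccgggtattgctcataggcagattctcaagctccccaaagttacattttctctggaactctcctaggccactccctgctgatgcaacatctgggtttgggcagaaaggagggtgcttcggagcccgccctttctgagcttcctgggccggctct
IL7R, chr5:35856641-35856890: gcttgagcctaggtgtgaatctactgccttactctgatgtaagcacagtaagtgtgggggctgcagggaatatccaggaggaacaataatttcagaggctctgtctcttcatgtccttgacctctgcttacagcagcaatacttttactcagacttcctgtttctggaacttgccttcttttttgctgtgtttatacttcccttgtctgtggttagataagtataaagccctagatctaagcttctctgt
IL10RB, chr21:33266117-33266366: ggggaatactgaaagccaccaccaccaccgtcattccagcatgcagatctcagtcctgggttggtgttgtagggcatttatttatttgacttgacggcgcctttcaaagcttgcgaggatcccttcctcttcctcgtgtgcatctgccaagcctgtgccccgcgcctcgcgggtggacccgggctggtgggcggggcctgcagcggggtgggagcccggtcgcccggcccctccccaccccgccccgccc
IL13RA1, chrX:118727356-118727605: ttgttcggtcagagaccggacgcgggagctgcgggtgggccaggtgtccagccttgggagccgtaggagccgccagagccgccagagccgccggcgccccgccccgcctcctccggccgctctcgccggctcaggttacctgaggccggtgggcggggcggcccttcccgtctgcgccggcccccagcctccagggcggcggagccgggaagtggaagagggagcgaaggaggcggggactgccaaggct
OSMR, chr5:38845762-38846011: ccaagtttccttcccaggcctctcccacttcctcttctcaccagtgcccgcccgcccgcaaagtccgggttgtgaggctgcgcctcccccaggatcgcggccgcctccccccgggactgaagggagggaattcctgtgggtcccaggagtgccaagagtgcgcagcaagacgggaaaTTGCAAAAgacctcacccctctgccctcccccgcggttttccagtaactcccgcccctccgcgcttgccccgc

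The 3 upstream sequences of the genes that rose hold 54% (CSF2), 53.6% (IL20RB) and 43.6% (IL7R) G and C. Those of the genes that fell hold 65.2% (IL10RB), 75.6% (IL13RA1) and 66.4% (OSMR). The median over all 35116 promoters of the RefSeq table was 58.0%, which lies between the 3 that rose and the 3 that fell. Of all promoters, 39.9%, 39.1% and 19.4% hold less G and C than those of CSF2, IL20RB and IL7R. For IL10RB, IL13RA1 and OSMR these shares are 67.6%, 90.7% and 70.7%. IL13RA2, the called member with the largest rise, has no promoter entry and is missing here. With 3 sequences on each side this is a description, and it was not tested. Motifs were searched on both strands from 250 bases before to 50 after the start, and no 2 matches in these 6 promoters overlap. The kappaB consensus bound by NF-kB was found in 0 of these 6 promoters and in 11.3% of all promoters. The AP-1 motif TGANTCA was found in that of OSMR alone, at bases 4 to 10 after the start, and in 7.71% of all promoters. The STAT motif TTCNNNGAA was found in CSF2 at bases -190 to -182 from the start, in IL10RB at bases 12 to 20 after it, and in 7.66% of all promoters. The C/EBP motif TTGCNNAA was found in OSMR, at bases -73 to -66 from the start, and in 10.5% of all promoters. The interferon response motif, GAAA and after any 2 bases again GAAA, was found in 0 of the 6 and in 3.57% of all promoters. A match of letters is not a bound site, and distal elements lie outside this window. The search took exact letters, so a site that departs from the searched motif was not counted. A count of 0 therefore does not show that a promoter lacks a site.

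The receptors of IL-4 and IL-13 moved in opposite directions. IL13RA2 binds IL-13 with high affinity and has long been regarded as a decoy, with a short intracellular tail. IL13RA1 is the signalling chain that pairs with IL4R. In the authors' deposited table, IL13RA2 (chromosome X, 115003982 to 115017616, GRCh38) had a base mean of 396 and a log2 ratio of 1.90 (adjusted p = 2.84e-34, SE 0.15). That is a 3.73-fold rise with a 95% interval of 3.04 to 4.58. Base mean and fold change together imply about 168 normalized reads per library in EGFR+vIII and 625 in the knockout. Its absolute log2 ratio exceeds that of 98.3% of tested accessions.

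IL13RA1 (chromosome X, 118727606 to 118805228) had a base mean of 11262 and a log2 ratio of -0.43 (adjusted p = 4.59e-07, SE 0.08) in the authors' deposited table. It was 1.35-fold lower, with a 95% interval of 1.21 to 1.5, which implies about 12925 normalized reads per library in EGFR+vIII and 9598 in the knockout. Per kilobase of transcript the base mean was 2790 for IL13RA1 and 289 for IL13RA2, so the signalling chain was the more abundant of the pair. The genes lie 3.71 Mb apart on chromosome X. The median log2 ratio of the other tested genes within 5 Mb was 0.02 around IL13RA2 (16 genes) and 0.01 around IL13RA1 (20 genes), with 5 and 6 of them called. IL4R, the chain with which IL13RA1 signals, is listed in the authors' deposited table with 4 accessions and 1 read in 1 library for the highest, so its change was not detectable. The ligands IL4 and IL13 are listed at 0. The call of IL13RA2 held under all 8 alternatives that gave it a value, and that of IL13RA1 ended only when a change beyond 1.5-fold was required (adjusted p = 1.0), named the 1.5-fold test from here on.

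Receptor chains of the IL-10 family also went both ways. IL20RB is the shared chain of the receptors for IL-19, IL-20 and IL-24, cytokines best known from skin. In the authors' deposited table, IL20RB (chromosome 3, 136957983 to 137011085) had a base mean of 75.8 and a log2 ratio of 1.46 (adjusted p = 1.61e-05, SE 0.30). The rise was 2.76-fold with a 95% interval of 1.82 to 4.17, from an implied 40.4 to 111 normalized reads per library. IL10RB (chromosome 21, 33266367 to 33310182), the accessory chain for IL-10, IL-22 and type III interferons, had a base mean of 1774 and a log2 ratio of -0.60 (adjusted p = 3.16e-08, SE 0.10) in the authors' deposited table. It was 1.51-fold lower (95% interval 1.32 to 1.73), from an implied 2135 to 1412 normalized reads per library. Around IL10RB the 40 other tested genes within 5 Mb had a median log2 ratio of -0.13 with 6 called, and around IL20RB 24 had a median of -0.13 with 8 called.

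The chains that pair with them gave few reads. IL22RA1, which joins either IL20RB or IL10RB, had a base mean of 20.1 and a log2 ratio of 0.37 (adjusted p = 0.563, SE 0.36) in the authors' deposited table. IL20RA, IL10RA and IFNLR1 are listed at 0, as are the ligands IL24, IL19 and IL20. The call of IL20RB was lost in the 1.5-fold test (adjusted p = 0.0911) and when each Wald score was divided by 1.75, the central spread of all tested scores (scaled Wald scores, adjusted p = 0.0653). That of IL10RB was lost in the first only (1.0).

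Among receptors and ligands of the IL-7, IL-15 and TSLP group, 1 of 3 tested members rose and 0 fell by the authors' DESeq2 test (1 higher and 0 lower at an unadjusted p under 0.05). Over all tested accessions the shares were 11.6% higher and 11.9% lower. IL7R, the chain that binds IL-7 and, together with CRLF2, TSLP, is best known from lymphocytes. Its accession (chromosome 5, 35856891 to 35879603) had a base mean of 78.0 and a log2 ratio of 0.89 (adjusted p = 0.0118, SE 0.29) in the authors' deposited table. The rise was 1.86-fold with a 95% interval of 1.25 to 2.75, from an implied 54.6 to 101 normalized reads per library. The call was lost at an adjusted p under 0.01, in the 1.5-fold test (1.0) and with scaled Wald scores (0.443). IL2RG, the other chain of the IL-7 receptor, had a base mean of 4.76 and a log2 ratio of -0.33 (adjusted p = 0.604) in the authors' deposited table, and CRLF2 is listed at 0. TSLP, an alarmin, had a log2 ratio of -0.43 (adjusted p = 0.496, SE 0.38) and IL15, a growth factor of natural killer cells seen here through a noncoding accession, one of -0.55 (adjusted p = 0.35, SE 0.38) in the authors' deposited table. Their base means were 11.4 and 13.7, and their 95% intervals reach from 2.27-fold lower to 1.24-fold higher for TSLP and from 2.44-fold lower to 1.15-fold higher for IL15. The second, coding accession of IL15 gave a ratio of the opposite sign, 0.12, from the authors' deposited table. IL7 is listed at 0, and IL15RA holds 1 read in 1 library.

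In the IL-6 and LIF family, 8 of 9 members were tested, 1 fell and 0 rose by the authors' DESeq2 test (1 lower and 0 higher at an unadjusted p under 0.05). The shares over all tested accessions were 11.9% lower and 11.6% higher. The member that fell was OSMR, the chain that pairs with IL6ST to bind oncostatin M and with IL31RA to bind IL-31. OSMR (chromosome 5, 38846012 to 38945579) had a log2 ratio of -1.01 (adjusted p = 0.00354, SE 0.29) at a base mean of 64.7 in the authors' deposited table. It was 2.01-fold lower, with a 95% interval of 1.35 to 3.0, from an implied 86.4 to 42.9 normalized reads per library. The value rests on 1 of 6 accessions of OSMR, since the other 5 are listed at 0. The call was lost in the 1.5-fold test (adjusted p = 1.0) and with scaled Wald scores (0.314).

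LIFR, the receptor of LIF, lies 238 kb from OSMR and had a base mean of 24.1 and a log2 ratio of -0.31 (adjusted p = 0.631, SE 0.36) in the authors' deposited table. Around OSMR the 39 other tested genes within 5 Mb had a median of -0.05. IL6ST, the chain shared by the family, was seen through 1 noncoding accession of 10 with a base mean of 5.16 and a log2 ratio of 0.51 (adjusted p = 0.338, SE 0.35) in the authors' deposited table. IL31RA had a base mean of 15.3 and a log2 ratio of -0.10 (adjusted p = 0.905), and oncostatin M itself (OSM) is listed at 0 in the authors' deposited table.

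The ligands of this family gave few reads and no call. IL6, the acute phase cytokine, had a log2 ratio of -0.51 (adjusted p = 0.333, SE 0.34) in the authors' deposited table, and its 95% interval runs from 2.26-fold lower to 1.12-fold higher. Its base mean of 4.96 resolves into 31 reads over the 6 libraries, from 0 to 17 in a library. IL11, a relative that acts on fibroblasts and bone, had 37 reads, from 0 to 17 in a library, and a log2 ratio of 0.29 (adjusted p = 0.64) in the authors' deposited table. LIF, a factor known for keeping stem cells undifferentiated, had a base mean of 18.3 and a log2 ratio of 0.07 (adjusted p = 0.933, SE 0.37) in the authors' deposited table. Its 95% interval runs from 1.58-fold lower to 1.74-fold higher, so a change within these bounds was not detectable. Changes at few reads are understated in the deposited estimates, so a larger one could also have been missed. CLCF1, a ligand of the CNTF receptor, had 43 reads, from 2 to 20 in a library, with the sign of its change turning in 2 other settings, and a log2 ratio of 0.25 (adjusted p = 0.712) in the authors' deposited table. The reads of these low ligands were spread unevenly over libraries whose size factors differ only from 0.928 to 1.07. 

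The IL-1 family held the ligand with the highest base mean among the members, and its change did not pass the test. IL1B, the secreted form that needs cleavage by an inflammasome protease, had a base mean of 4596, or 2818 per kilobase, close to that of IL13RA1. In the authors' deposited table, IL1B (chromosome 2, 112829751 to 112836779) had a log2 ratio of 0.07 (adjusted p = 0.643, SE 0.08). Its 95% interval runs from 1.06-fold lower to 1.16-fold higher, so a change of 1.5-fold lies outside it. IL1A, a cytokine that is active without cleavage and lies 45.3 kb from IL1B, had a base mean of 104 (49.2 per kilobase) and a log2 ratio of 0.41 (adjusted p = 0.29, SE 0.26) in the authors' deposited table. Its 95% interval, from 1.07-fold lower to 1.88-fold higher, is wider than that of IL1B. In all, 0 of 3 tested members of this family were called by the authors' DESeq2 test, and 0 had an unadjusted p under 0.05. Of all tested accessions, 23.5% were called.

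The receptors of IL-1 were poorly resolved. IL1RAP, the accessory chain for IL-1 and IL-33, had a base mean of 20.05 and a log2 ratio of -0.24 (adjusted p = 0.737, SE 0.37) in the authors' deposited table, from 1 of its 11 accessions. IL1R1 holds 8 reads in 3 libraries and IL1RL1, the IL-33 receptor, 3 reads in 1 library. The antagonist IL1RN and the ligands IL18 and IL33 are listed at 0, with 5, 2 and 9 accessions. The 3 IL-17 receptor chains IL17RA, IL17RC and IL17RD hold 12, 4 and 6 reads over the 6 libraries, too few for an adjusted p. IL27RA, the receptor of IL-27, had a base mean of 32.3 and a log2 ratio of 0.49 (adjusted p = 0.328, SE 0.33) in the authors' deposited table, and IL12A and IL32 are listed at 0.

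Colony-stimulating factors drive the growth of myeloid cells, and 1 of 3 tested members rose and 0 fell by the authors' DESeq2 test (1 higher and 0 lower at an unadjusted p under 0.05). Of all tested accessions, 11.6% were called higher and 11.9% lower. CSF2, the granulocyte and macrophage factor GM-CSF, had a base mean of 20.8 and a log2 ratio of 1.39 (adjusted p = 0.00161, SE 0.38) in the authors' deposited table. CSF2 (chromosome 5, 132073789 to 132076170) rose 2.62-fold with a 95% interval of 1.57 to 4.37, from an implied 11.5 to 30.1 normalized reads per library. Among the 319 other tested accessions with a base mean within 10% of that of CSF2, 11.3% were called and 15 had a larger log2 ratio. The call was lost in the 1.5-fold test (adjusted p = 0.562) and with scaled Wald scores (0.251). CSF3, the granulocyte factor, seen here through a noncoding accession, holds 53 reads, from 5 to 20 in a library, and had a log2 ratio of -0.17 (adjusted p = 0.835, SE 0.38) in the authors' deposited table. CSF1, the macrophage factor, had a base mean of 32.2 and a log2 ratio of -0.05 (adjusted p = 0.948, SE 0.33) in the authors' deposited table. IL34, the second ligand of the CSF1 receptor, is listed at 0, as are the receptor genes CSF1R, CSF2RA and CSF2RB.

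**Figure D3:**
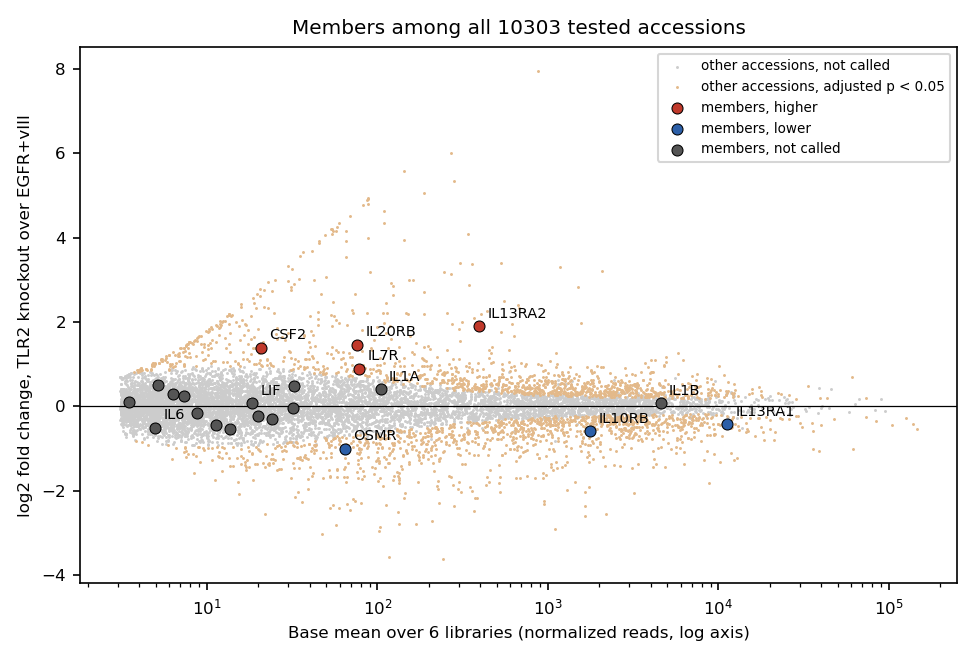
Log2 ratio (log2 fold change on the axis) (TLR2 knockout over EGFR+vIII) against base mean (normalized reads, log axis) for all tested accessions, with the 22 tested members as large points. The red points of CSF2, IL20RB, IL7R and IL13RA2 lie above 0, the blue points of OSMR, IL10RB and IL13RA1 below it, and IL1B sits at 0.07 among the most abundant accessions.

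Among the 8 members with 1 accession, where base mean per kilobase can be set side by side, the order of levels was IL1B (2818 normalized reads per kilobase), IL13RA1 (2790), IL10RB (904), IL13RA2 (289), IL1A (49.2), IL20RB (37.0), CSF2 (26.4) and IL27RA (10.9). No spread over libraries is given for these levels, so the order of neighbours was not tested. In this order IL13RA1 and IL10RB were lower in the knockout by 1.35-fold and 1.51-fold. IL13RA2, IL20RB and CSF2, further down, were higher by 3.73-fold, 2.76-fold and 2.62-fold. IL1B at the top, IL1A and IL27RA at the end were not called (log2 ratios 0.07, 0.41 and 0.49). A link between level and direction was not tested.

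The genes around these cytokines were read from 6 further lists of 177 genes, of which 68 were tested in the authors' deposited table. They were called higher in 16 cases and lower in 7, 33.8% of those tested, beside 23.5% of all tested accessions and 34.0% of genes with 1 accession. Their median log2 ratio was 0.20, beside 0.02 over all accessions. In the list of other interleukins and receptors, 12 of 65 genes were tested, 2 rose and 1 fell (25.0% called), and 42 are listed at 0. IL23R, the specific chain of the IL-23 receptor, rose 5.44-fold with a log2 ratio of 2.44 (adjusted p = 2.85e-09, SE 0.38) at a base mean of 18.9 in the authors' deposited table. EBI3, the subunit shared by IL-27 and IL-35, rose 3.48-fold with a log2 ratio of 1.80 (adjusted p = 1.92e-05, SE 0.38) at a base mean of 17.4 in the authors' deposited table. IL17D, a secreted IL-17 relative, had a log2 ratio of -0.71 (adjusted p = 0.0169, SE 0.24) in the authors' deposited table. Few reads were assigned to the partners of the first 2: IL23A had a base mean of 4.92 and a log2 ratio of 0.03 (adjusted p = 0.974), IL12RB1 a base mean of 1.0 without an adjusted p, and IL27 is listed at 0 in the authors' deposited table. IL23R and EBI3 are also the only pathway genes of the 68 whose call held in the 1.5-fold test (adjusted p = 4.77e-05 and 0.0342), and EBI3 lost its call with scaled Wald scores (0.0688).

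Below the receptors, 6 of 15 JAK and STAT genes were tested and 6 are listed at 0. STAT3, JAK1 and JAK2 are listed at 0 in the authors' deposited table, with 3, 8 and 7 accessions. Among feedback regulators, 3 of 13 tested were higher and 3 lower, 46.2% beside 23.5% over all accessions and 34.0% of genes with 1 accession; the difference was not tested. SOCS1 (log2 ratio 1.12, SE 0.22), USP18 (0.41, SE 0.15) and SOCS3 (0.27, SE 0.09), which restrain JAK and interferon signalling, rose in the authors' deposited table. PIAS3, an inhibitor of STAT3 (-0.74, SE 0.10), SOCS5 (-0.72, SE 0.24) and SOCS6 (-0.44, SE 0.08) fell in the authors' deposited table. Relative to neighbouring genes, the call of SOCS3 was lost.

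In the IL-1 and IL-17 pathways, 3 of 12 tested genes rose and 0 fell by the authors' DESeq2 test (3 higher and 1 lower at an unadjusted p under 0.05). That is 25.0% of those tested, close to the 23.5% over all accessions. The genes were TRAF2 (log2 ratio 0.69, SE 0.15), IRAK2, a kinase of the MYD88 complex (0.45, SE 0.12), and TAB3, an adaptor of the kinase TAK1 (0.33, SE 0.09), in the authors' deposited table. Relative to neighbouring genes, TAB3 was lower. MYD88 holds a base mean of 0.698 and IRAK1 is listed at 0 in the authors' deposited table. Of genes for cytokine maturation, shedding and mRNA stability, 2 of 12 tested rose and 1 fell, also 25.0%. ADAM17, the sheddase of IL6R, had a log2 ratio of 0.28 (SE 0.08), ZFP36L2, a protein that destabilizes cytokine mRNA, one of 0.30 (SE 0.10), and RHBDF1, a partner that carries ADAM17 to the surface, one of -0.89 (SE 0.12) in the authors' deposited table. Of transcription factors known to bind interleukin promoters, 5 of 13 tested rose and 2 fell. That is 53.8%, beside 23.5% over all accessions and 34.0% of genes with 1 accession, differences that were not tested. NFKBIZ, a cofactor of NF-kB (log2 ratio 1.08, SE 0.37), FOS (0.74, SE 0.19) and the NF-kB subunit RELB (0.68, SE 0.20) led the rises in the authors' deposited table. The AP-1 subunits FOSL2 (-0.43, SE 0.10) and JUN (-0.25, SE 0.07) fell in the authors' deposited table. Among these pathway genes, the calls of IL23R, SOCS1, PIAS3, SOCS6 and RHBDF1 held with scaled Wald scores.

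**Figure D4:**
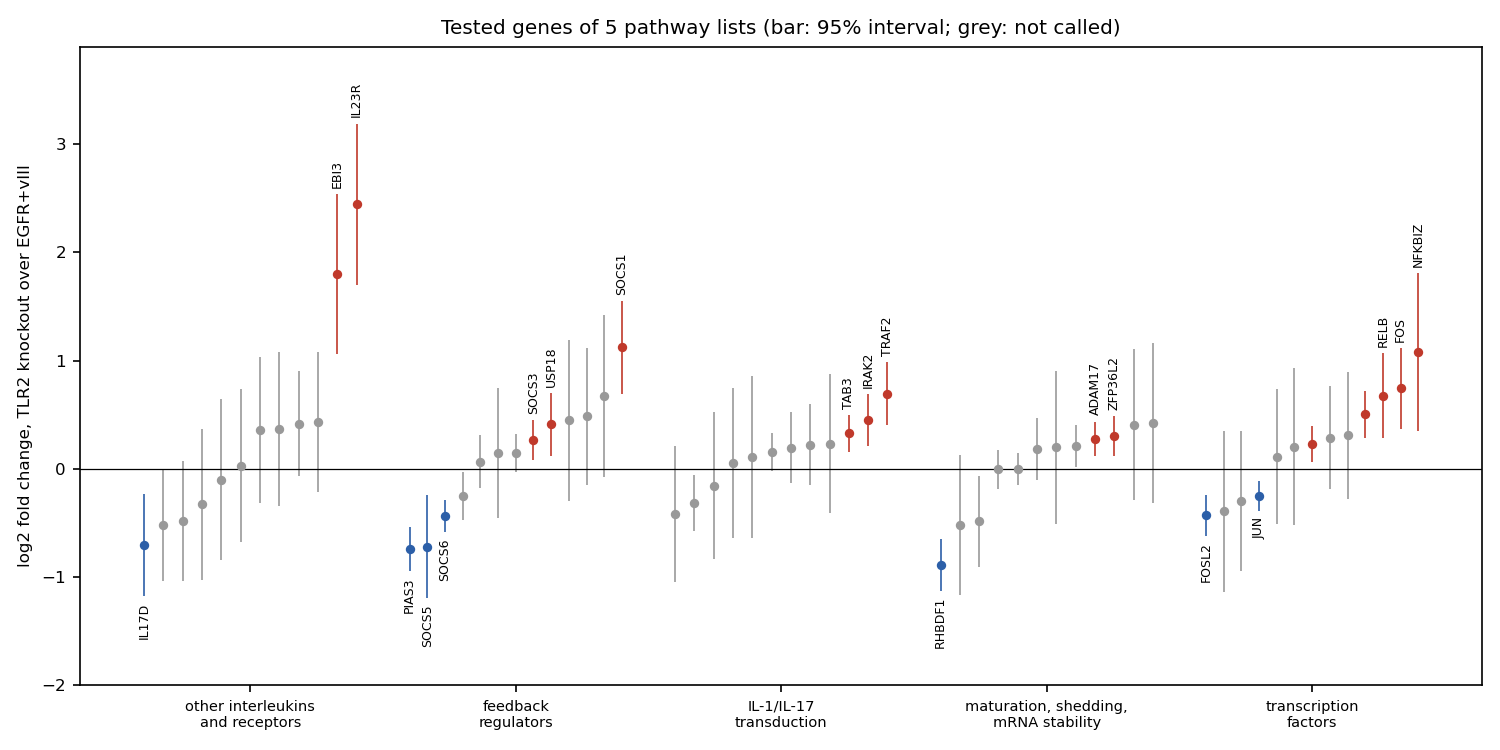
Log2 ratio (log2 fold change on the axis) (TLR2 knockout over EGFR+vIII, bars for the 95% interval) of the tested genes in 5 pathway lists (the JAK and STAT list is not drawn), red for higher and blue for lower at an adjusted p under 0.05 and grey for not called. IL23R at 2.44 and EBI3 at 1.80 stand highest, and RHBDF1 at -0.89 lowest among the called genes.

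**Figure D5:**
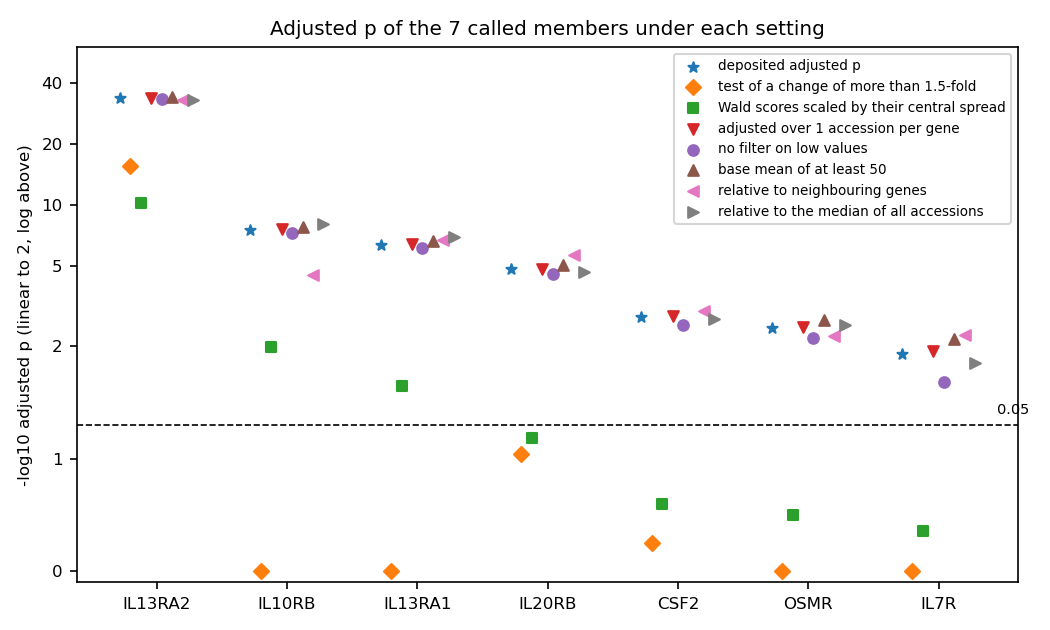
Adjusted p (as -log10, linear to 2 and on a log scale above) of the 7 called members as deposited and under 7 other settings, with the dashed line at 0.05. IL13RA2 stays above the line in every setting shown, and the 1.5-fold test (diamonds) takes the other 6 members below it.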

How the data were processed

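RNA of 6 U87 libraries, 3 per group by the cell type in the labels, was sequenced; total RNA extraction is stated in the labels' protocols. Per the submitters' processing notes, STAR and DESeq2 were used with hg38; the sources used here give no versions, counter, strandedness or annotation, so reads of genes that overlap on opposite strands may be mixed. The authors deposited 1 table of their own comparison with 67933 transcript accessions and no value per library. The deposited base mean was used as a signal of abundance. The deposited log2 fold change (log2 ratio in the text) and its SE are on the log2 scale. The deposited Wald score equals their ratio within 5.39e-07, and the deposited p-value was adjusted by the authors with the Benjamini-Hochberg method over 10303 accessions (matched here within 4.48e-07). The largest deposited SE is 0.38 on the log2 scale even at few reads, as shrinkage gives, so changes at few reads are understated.

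Accessions were matched to genes with RefSeq (GRCh38.p14; 98.8% matched). Transcript lengths came from GENCODE for 34 members. A call is a deposited adjusted p under 0.05; 95% intervals are the estimate plus and minus the normal quantile times SE. Implied group levels split the base mean by the fold change, assuming 3 libraries a side. Low base means were resolved into whole reads per library: all 5012 accessions of a few reads were whole within 1e-07, and 200 of 200 sampled accessions gave a single solution within 1e-09. Depth per library is otherwise not stated.

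Members and lists were chosen with earlier results of these data known. Named are the called members, members with a base mean of at least 100, the rest where a role needs them, and up to 3 called genes per direction of each pathway list; partners of a named receptor were added after their values were seen. Alternatives were adjusted p under 0.01, a test against a change of 1.5-fold (the 1.5-fold test), scores divided by their central spread (1.75), adjustment over genes, no filter, a base mean of at least 50, the second accession, and centring on neighbours within 5 Mb or on all accessions. The values of 1 pathway gene are not reported here. Functions were tested on simulated data. Python 3.11.15, pandas 2.3.3 and scipy 1.17.1 were used.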

Additional observations from a re-analysis of the deposited data

How the results depend on the processing

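Among the 7 called members, all kept their direction when ratios were centred on neighbouring genes or on all accessions. The other alternatives that gave them a value reuse the deposited ratio, so direction could not change there. Centring on all accessions moves a ratio by only 0.02. The members called numbered 4 higher and 3 lower; the 1.5-fold test left 1 higher (IL13RA2) and 0 lower (3 and 0 at its unadjusted p under 0.05, computed from the authors' DESeq2 estimates), and scaled Wald scores left 1 higher (IL13RA2) and kept IL10RB and IL13RA1. The pathway genes, 16 higher and 7 lower, numbered 2 and 0 in the 1.5-fold test (3 and 1 at its unadjusted p), 3 and 3 with scaled Wald scores, and 12 lower relative to neighbouring genes, where TAB3 also changed sign while passing the threshold. Over all genes, 2352 were called, 400 in the 1.5-fold test and 877 with scaled Wald scores. Of members that were not called, IL1B had a log2 ratio of -0.0781 and CLCF1 one of -0.0196 relative to neighbouring genes. The second accession gave -0.0244 for CLCF1 (SE 0.22) and 0.12 for IL15 (SE 0.31), both without an adjusted p. The cause of these changes of sign was not tested. At a base mean of at least 50, CSF2 was left out by construction. Leaving out each replicate and a count test with edgeR were not run, since the table holds no value per library. No paired analysis was possible because the table carries no value per library. Few reads limit the set: 16 of 38 members, each with 2 or more accessions, have no adjusted p, and tested members under a base mean of 25 had SEs of 0.30 to 0.38 on the log2 scale.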

Other observations

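IL23R and EBI3, which belong to the IL-12 family, can be set beside accessions of their depth in the table. Of 370 other tested accessions with a base mean within 10% of that of IL23R, 4 had a larger log2 ratio than its 2.44, the highest being 2.79. Around EBI3, 8 of 387 did, and the highest was 2.57. Of the called members, IL13RA2 was exceeded by 3 of 177 such accessions, IL20RB by 6 of 232, IL7R by 12 of 235 and CSF2 by 15 of 319. Among accessions near OSMR, 10 of 231 had a lower log2 ratio, down to -2.45. Near IL10RB 20 of 204 did, and near IL13RA1 8 of 52. The share called among such accessions was 53.8% near IL13RA1, 50.5% near IL10RB and 41.2% near IL13RA2. It was 20.9% near IL7R, 20.8% near OSMR, 20.3% near IL20RB and 11.3% near CSF2.

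Only 28 members have an entry in the RefSeq promoter table, with 46 starts. The kappaB consensus was found at 9 of these 46 starts, among them those of IL6, IL6ST, IL32 and TSLP, and in 11.3% of all promoters. Of the members with this motif, IL12A and IL32 are listed at 0, and IL11RA, IL15RA and IL4R lack an adjusted p. These could not be called. IL6, IL6ST, TSLP and IL27RA were tested with few reads and were not called by the authors' DESeq2 test (SEs from 0.33 to 0.38). The lack of calls therefore does not tell whether genes with this motif changed. The AP-1 motif TGANTCA was found at 10 starts (7.71% of all promoters) and the STAT motif TTCNNNGAA at 9 (7.66%). The C/EBP motif TTGCNNAA was found at 6 (10.5%) and the interferon response motif at 4 (3.57%). Counts of starts were not tested against the shares over all promoters. Several members have more than 1 start, and starts of a gene can share bases, so these are not independent counts.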
